A study of Nicotiana tabacum with 8 samples.

Results

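The unigenes described here were switched between sets of leaf libraries: listed above 0 in every library of one set and at exactly 0 in every library of the other. One set held the cold libraries KT1 and KT2 with the control libraries labelled KC1 and CC2, and the other held the cold libraries CT1 and CT2 with the control libraries labelled CC1 and KC2. A unigene was kept when its linear value was at least 1 in both cold libraries of the set that expressed it. By this rule 265 of the 135146 unigenes in the table were chosen, 142 expressed in the set of KT1 and KT2 (the KT set) and 123 expressed in the set of CT1 and CT2 (the CT set). The choice used the values of all 8 libraries, so the on and off states below are a description and were not tested.

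The libraries came from leaves of tobacco (Nicotiana tabacum) at the 6-leaf stage, with 2 libraries in each of 4 groups. The groups were K326 cold (KT) and CB-1 cold (CT), both kept at 4 °C for 1 day, and K326 control (KC) and CB-1 control (CC), both kept warm. K326 and CB-1 are cultivars that were compared for their tolerance to cold, and the leaves of several plants were pooled in each library. Nothing in the labels says more about how replicate libraries differ, so p-values measure only the spread between these pooled samples.

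Tobacco is an allotetraploid, so most of its genes exist as near-identical copies from both ancestral genomes, and cultivars can carry different alleles of each. An assembly made from reads alone, without a genome, can report such copies or alleles as separate unigenes of one cluster. An abundance program then divides reads that fit several unigenes among them, so the values of unigenes in one cluster are uncertain where their sequences are alike. Here a unigene is named by its cluster and its number within it, so that c67710_g1 and c67710_g2 belong to the same cluster.

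Values are log2(value + 1) of the abundance estimate, the scale on which the table was deposited, and the table gives no read counts, so the depth behind each value is unknown. Each library listed between 41878 and 51331 unigenes above 0, and 40663 unigenes were at 0 in all 8. An exact 0 can be a failed estimate as well as an absent transcript, and a lower value in a bulk sample cannot tell fewer expressing cells from less RNA per cell. No fold change is given against a group whose libraries were both listed at 0. The names of leaf markers (chlorophyll-binding proteins, Rubisco subunits and the like) did not occur among the 1999 annotated unigenes used here, so the tissue was not checked by name.

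By most measures the control libraries did not group by their labels, and this touches every value below. Among 12255 unigenes at or above 1 in all 8 libraries, none of which can be on-off, Pearson's correlation was 0.982 between KC2 and CC1 and 0.975 between KC1 and CC2. It was 0.960 between KC1 and KC2, 0.974 between CC1 and CC2, 0.969 between KC1 and CC1 and 0.967 between KC2 and CC2, over unigenes, which are not independent replicates. The median absolute difference was lowest between KC2 and CC1, at 0.137, but highest between KC1 and CC2, at 0.223. It was 0.206 between KC1 and KC2, 0.189 between CC1 and CC2, 0.193 between KC1 and CC1 and 0.22 between KC2 and CC2. This measure thus put KC1 nearest to CC1 and not to CC2, and it put CC2 nearest to CC1, the library of its own label. Of these unigenes, 90 were over 1 log2 unit higher in both K326 cold libraries than in both CB-1 cold libraries. In 54 of the 90 (60.0%) KC1 and CC2 both lay above CC1 and KC2, and in 14 (15.6%) KC1 and KC2 both lay above CC1 and CC2. A further 44 unigenes were lower in K326 cold by the same margin, and 34 of them (77.3%) followed the crossed order with KC1 and CC2 below CC1 and KC2, against 1 (2.27%) with the labelled order. The controls are therefore called the libraries labelled KC1, KC2, CC1 and CC2 throughout. Whether control libraries of the cultivars were exchanged was not tested. If they were, each change by label given below, for members, mates or other unigenes, would rest on control groups of mixed cultivars.

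A single member was among the unigenes for which the study designed qPCR primers, NFYB7 (c70415_g4) of the CT set. Its primers are shown because no other sequence of a member was found in the sources used here. The pair is given from 5′ to 3′.
NFYB7 forward primer: gcccttcaccattttccgtt
NFYB7 reverse primer: ggcttctctgattcgagcac
Each primer has 20 bases.

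**Figure D1:**
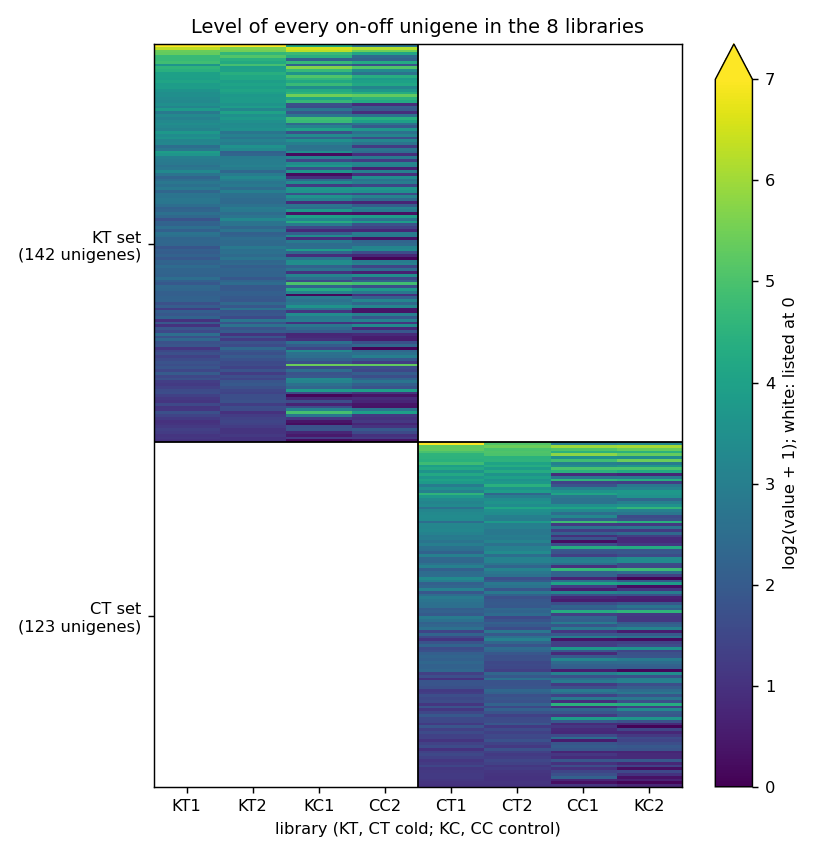
Level of each of the 265 on-off unigenes (rows, ordered by mean cold level within the set) in the 8 libraries (columns), with colour for log2(value + 1), one colour above 7, and white for a value listed at 0. The 142 unigenes of the KT set fill the upper left block and the 123 of the CT set the lower right block, and the empty blocks are fixed by the rule.

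Within the sets the expressed levels were mostly low. In the KT set the values ran from 1.01 to 8.81 in KT1 with a median of 2.29, and from 1.01 to 8.38 in KT2 with a median of 2.44. In the libraries labelled KC1 and CC2, where the rule set no minimum, the KT set ran from 0.10 to 6.54 with a median of 2.65 and from 0.08 to 6.21 with a median of 2.35. The KT set was thus expressed at like median levels in its cold and control libraries. In the CT set the medians were 2.27 in CT1 and 2.29 in CT2, with highest values of 7.01 and 5.43. The libraries labelled CC1 and KC2 had medians of 2.08 and 1.92 in the CT set, with highest values of 5.98 and 6.04. A mean cold level of at least 3 was reached by 39 unigenes of the KT set and 32 of the CT set, and a mean of at least 5 by 3 and 4. Most members therefore lay low, where a log2(value + 1) difference understates a change.

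Members just inside and just outside the minimum differed little. In the KT set, c74672_g1 had 1.01 in KT1 and 1.47 in KT2 and was kept, while c42990_g1 with 0.98 and 1.89 and c24777_g1 with 1.32 and 0.97 were left out. The other KT member nearest the minimum was c75611_g5, with 1.01 and 2.73. In the CT set, c77621_g18 had 1.0 in CT1 and 1.75 in CT2 and c32598_g2 had 1.14 and 1.02, and both were kept. Just outside were c61945_g2 with 0.99 and 1.03 and c54722_g3 with 0.98 and 1.91. Without the minimum the same on-off pattern was shown by 281 unigenes of the KT kind, 139 of them under the minimum, and by 285 of the CT kind, 162 under it.

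The highest member of all was c67871_g1, annotated as the calcium-binding allergen Ole e 8, an EF-hand protein first known from olive pollen. Its values were 8.81 in KT1 and 8.38 in KT2, against 4.26 in the library labelled KC1 and 2.77 in the library labelled CC2. Both cold libraries stood above both expressing controls, and its cold mean lay 4.33 log2 units above KC1 and 5.82 above CC2, the largest such differences of the KT set. The next unigenes of the KT set by cold level had no function in the annotation. Of these, c76309_g2 had 6.31 and 5.63 in KT1 and KT2, against 6.54 in KC1 and 6.21 in CC2. The unigene c78528_g3 had 5.40 and 5.52 in the cold, against 6.28 in KC1 and 5.44 in CC2. For both of them the cold and control values overlapped. They also overlapped for c53377_g1, with 5.35 and 4.64 in KT1 and KT2, against 4.75 in KC1 and 4.15 in CC2. The unigene c73595_g1 had 4.71 and 5.09 in the cold, against 4.38 in KC1 and 2.45 in CC2, so that its cold values lay above both.

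Carbohydrate and proline enzymes of the KT set were higher in the cold than in the expressing controls. Trehalose-phosphate phosphatases remove the phosphate from trehalose phosphate, a sugar signal of plants, and the annotation names TPP4 (c67710_g1) and TPPI (c67710_g2) in the same cluster. TPP4 had 4.71 and 4.45 in KT1 and KT2, against 2.15 in KC1 and 2.23 in CC2. TPPI had 2.76 and 2.43 in the cold, against 0.90 in KC1 and 0.74 in CC2. In both unigenes the cold libraries lay above the controls, and since they share a cluster they are not independent examples. Proline dehydrogenase starts the breakdown of proline, an osmolyte, in mitochondria. Its unigene POX2 (c67003_g5) had 3.68 and 2.29 in KT1 and KT2, against 0.20 in KC1 and 0.93 in CC2, with the cold libraries again above both controls but 1.39 log2 units apart from each other.

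Defence genes of the KT set did not share one direction. Proteinase inhibitor type-2 (c66612_g1) belongs to a family of the nightshades that blocks digestive serine proteinases. It had 3.73 and 2.72 in KT1 and KT2, against 1.72 in KC1 and 2.62 in CC2, and the lower cold value exceeded the higher control value by little. R1A-6 (c87077_g3), a homolog of potato proteins of resistance to late blight, had 2.83 and 2.51 in the cold, against 3.65 in KC1 and 3.68 in CC2, so that both cold libraries lay below both controls.

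The lowest annotated member of the KT set in the cold was NLP1 (c74453_g1), whose family of transcription factors acts in the response to nitrate. It had 1.68 and 1.62 in KT1 and KT2, against 5.44 in KC1 and 5.33 in CC2. Its cold mean lay 3.79 log2 units below KC1 and 3.68 below CC2, the lowest such differences of the KT set. The cold replicates lay 0.055 apart and the expressing controls, which carry different labels, 0.11 apart. With the controls taken by label, each pair spanned this level and 0. In the test by label described below NLP1 had a log2 change of −1.07 in K326 and was not called (limma, adjusted p = 0.71). The rule used all of these values, so nothing is read from this. The difference from KC1 and CC2 was not tested. The unigenes with names of mobile elements moved less. AtMg00810 (c50710_g2), named after an uncharacterized mitochondrial reading frame of Arabidopsis, had 3.45 and 3.92 in the cold, against 4.51 in KC1 and 4.33 in CC2. A retrovirus-related Pol polyprotein (c63631_g1) had 3.31 and 3.52 in the cold, against 2.75 in KC1 and 2.60 in CC2. The first lay below and the second above its expressing controls.

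**Figure D2:**
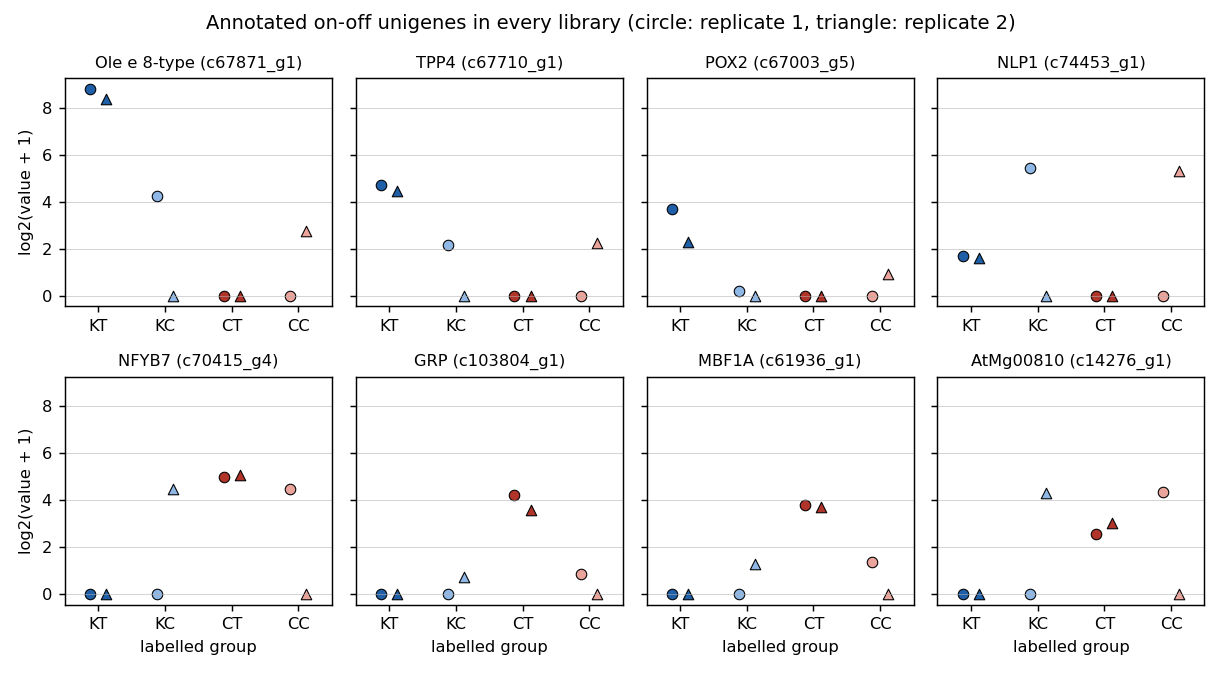
Log2(value + 1) of 8 annotated on-off unigenes in every library, by labelled group (KT and CT cold, KC and CC control), with a circle for replicate 1 and a triangle for replicate 2. In each panel 1 library of each labelled control pair is at 0 and the other is not, as in NLP1 with 5.44 in KC1 and 5.33 in CC2.

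In the CT set, the transcriptional regulators NFYB7 and MBF1A lay above the expressing controls in the cold. NFYB7 (c70415_g4) is a B subunit of the nuclear factor Y complex, which binds CCAAT motifs in promoters. It had 4.98 and 5.09 in CT1 and CT2, against 4.47 in the library labelled CC1 and 4.50 in the library labelled KC2, and its cold values lay above both by about the same small step. MBF1A (c61936_g1), a coactivator that bridges transcription factors and the TATA-binding protein, had 3.81 and 3.73 in the cold, against 1.40 in CC1 and 1.29 in KC2. Both cold libraries of MBF1A were more than 2 log2 units above both controls.

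Both MADS-box members of the CT set overlapped between cold and control. PMADS1 (c24787_g1), named after a petunia gene of petal and stamen identity, had 2.32 and 1.98 in CT1 and CT2, against 1.87 in CC1 and 2.24 in KC2. AGL62 (c3433_g1), known from Arabidopsis seed, had 2.27 and 1.72 in the cold, against 1.96 in CC1 and 1.82 in KC2. These names fall under the flower markers, of which 3 unigenes were annotated, the third being an AGL8 homolog (c61106_g1) outside the on-off sets. Only the AGL8 homolog was above 0 in KT1, KT2, KC1 and CC2, and all 3 were above 0 in CT1, CT2, CC1 and KC2. The log2 of their summed linear value plus 1 ran from 2.60 to 3.70 in KT1, KT2, KC1 and CC2, and from 2.93 to 3.44 in CT1, CT2, CC1 and KC2. These sums overlapped between the sets, but the AGL8 homolog ran the opposite way to PMADS1 and AGL62. The AGL8 homolog had 3.702, 3.575, 2.604 and 2.616 in KT1, KT2, KC1 and CC2. In CT1, CT2, CC1 and KC2 it had 1.618, 1.257, 1.151 and 0.807. Another MADS-box unigene, MADS6 (c28883_g1), did not fall under the flower names and is added here after its values were seen. It had 1.15, 1.41, 1.06 and 1.95 in KT1, KT2, KC1 and CC2, and 3.77, 3.07, 3.04 and 3.21 in CT1, CT2, CC1 and KC2. With it the sums of the 4 unigenes ran from 2.84 to 3.83 in the libraries of the KT set. In those of the CT set they ran from 3.91 to 4.55, without overlap. The rule itself put PMADS1 and AGL62 at 0 in the libraries of the KT set and above 0 in those of the CT set. Nothing is therefore read from these sums or from the unigenes above 0. The part of these levels in the results was not tested.

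GRP (c103804_g1), a glycine-rich protein, showed the largest difference of the CT set from both controls. It had 4.23 and 3.58 in CT1 and CT2, against 0.88 in CC1 and 0.75 in KC2, with a cold mean 3.03 log2 units above CC1 and 3.16 above KC2. GA2OX8 (c68453_g1), a dioxygenase that inactivates gibberellins, had 1.80 and 1.52 in the cold, against 0.92 in CC1 and 1.34 in KC2. The alkenal double bond reductase P1 (c100467_g1), which acts on reactive products of lipid oxidation, had 4.56 and 2.34 in the cold, against 4.10 in CC1 and 3.67 in KC2. Its cold replicates lay 2.23 log2 units apart, more than their mean differed from either control. The F-box protein SKIP23 (c30763_g1) had 3.49 and 3.58 in the cold, against 3.05 in CC1 and 3.11 in KC2, a small difference.

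The transporters of the CT set overlapped between cold and control. The zinc transporter ZIP5 (c19784_g1) had 3.80 and 2.98 in CT1 and CT2, against 2.80 in CC1 and 3.54 in KC2. NPF7.3 (c57948_g3), which in Arabidopsis loads nitrate into the xylem, had 1.93 and 1.36 in the cold, against 1.22 in CC1 and 1.87 in KC2. The name AtMg00810 was carried by a pair of CT members as well. Of these, c14276_g1 had 2.58 and 3.04 in the cold, against 4.36 in CC1 and 4.31 in KC2, and lay below both controls. The other, c86509_g5, had 2.26 and 1.96 in the cold, against 1.95 in CC1 and 1.97 in KC2, and overlapped.

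The CT unigenes with the highest cold levels had no function in the annotation apart from NFYB7. The unigene c87103_g1 had 7.01 and 5.06 in CT1 and CT2, against 3.05 in CC1 and 3.28 in KC2, above both controls with cold replicates 1.95 apart. The unigene c57042_g1 had 5.28 and 5.43 in the cold, against 5.98 in CC1 and 6.04 in KC2, and c26410_g1 had 4.56 and 5.03, against 5.77 in CC1 and 5.34 in KC2. These last lay below both controls. For c98228_g1, with 5.298 and 5.001 in the cold, against 5.11 in CC1 and 5.36 in KC2, the values overlapped.

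Across all members, cold levels lay on either side of the controls of the same set. In the KT set both cold libraries lay above the libraries labelled KC1 and CC2 in 42 unigenes, below both in 49 and among them in 51. Over the 20610 tested unigenes above 0 in these 4 libraries, the share was 26.5% above and 49.7% below. In the CT set 54 unigenes lay above the libraries labelled CC1 and KC2, 34 below and 35 among them, against 26.7% above and 51.3% below over 20716 tested unigenes. The minimum in the rule applied to the cold libraries alone, and the rule used all of these values, so nothing is read from these counts. The median of the cold mean minus the control of the same label was −0.27 in the KT set (minus KC1) and 0.19 in the CT set (minus CC1). Against the control of the other label it was 0.10 in the KT set (minus CC2) and 0.26 in the CT set (minus KC2). A cold mean more than 1 log2 unit above both controls was found for 19 unigenes of the KT set and 22 of the CT set, and more than 1 below both for 13 and 11. Most members, 73 of the KT set and 71 of the CT set, stayed within 1 log2 unit of both controls.

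**Figure D3:**
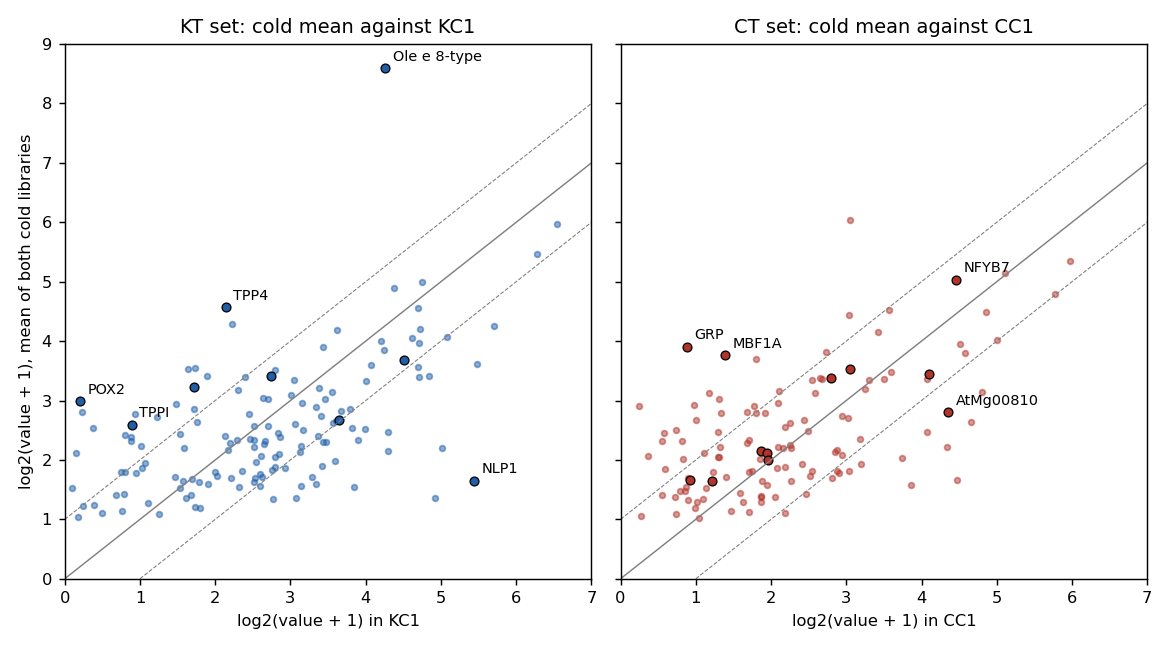
Mean log2(value + 1) of the cold libraries (vertical) against the library labelled KC1 for the KT set (left) and CC1 for the CT set (right), 1 point a unigene with annotated members dark, the solid line at equal values and the dashed lines 1 log2 unit to either side. The Ole e 8-type unigene, TPP4, POX2, GRP and MBF1A stand above the band and NLP1 stands below it with 1.65 in the cold against 5.44 in KC1.

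By median difference, the expressing control libraries of different labels were further apart than the cold libraries in the KT set and closer in the CT set. The median absolute difference between the libraries labelled KC1 and CC2 was 0.47 in the KT set, and 0.32 between KT1 and KT2. It was 0.27 between the libraries labelled CC1 and KC2 in the CT set, and 0.39 between CT1 and CT2. Levels were within 1 log2 unit between KC1 and CC2 for 126 of 142 unigenes and between CC1 and KC2 for 117 of 123. KC1 was above CC2 in 107 of 142 unigenes, whereas CC1 was above KC2 in 65 of 123. Over the members of the KT set Pearson's r was 0.876 between KT1 and KT2, 0.887 between KC1 and CC2, and from 0.458 to 0.539 between cold and control libraries. Over the CT set it was 0.789 between CT1 and CT2, 0.931 between CC1 and KC2, and from 0.470 to 0.656 between cold and control. These describe 142 and 123 unigenes that share the same libraries. The rule used the values of all these libraries, so nothing is read from how close they lay.

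The control libraries could be described without using them in the choice. With the cold libraries alone, 399 unigenes were at or above a linear value of 1 in KT1 and KT2 and at 0 in CT1 and CT2. Of these, 233 (58.4%) were above 0 in the library labelled KC1 and 227 (56.9%) in CC2, against 69 (17.3%) in KC2 and 71 (17.8%) in CC1. The reverse choice gave 357 unigenes, of which 193 (54.1%) were above 0 in CC1 and 193 (54.1%) in KC2, against 65 (18.2%) in KC1 and 56 (15.7%) in CC2. Among all 31884 unigenes tested, the shares above 0 were alike, 83.7% in KC1, 82.4% in KC2, 83.2% in CC1 and 81.5% in CC2. The crossed pair alone expressed 142 of the 399 (35.6%) and 123 of the 357, while the pair of the same label alone expressed 4 and 1. A further 131 and 127 were at 0 in all 4 controls, and 44 and 32 were above 0 in all 4. The crossed pattern without the minimum, in which low values dominate, made up 10.1% of the unigenes chosen in both directions, against 35.1% with it and 57.1% at a minimum of 2. These alternatives were chosen after seeing the data.

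**Figure D4:**
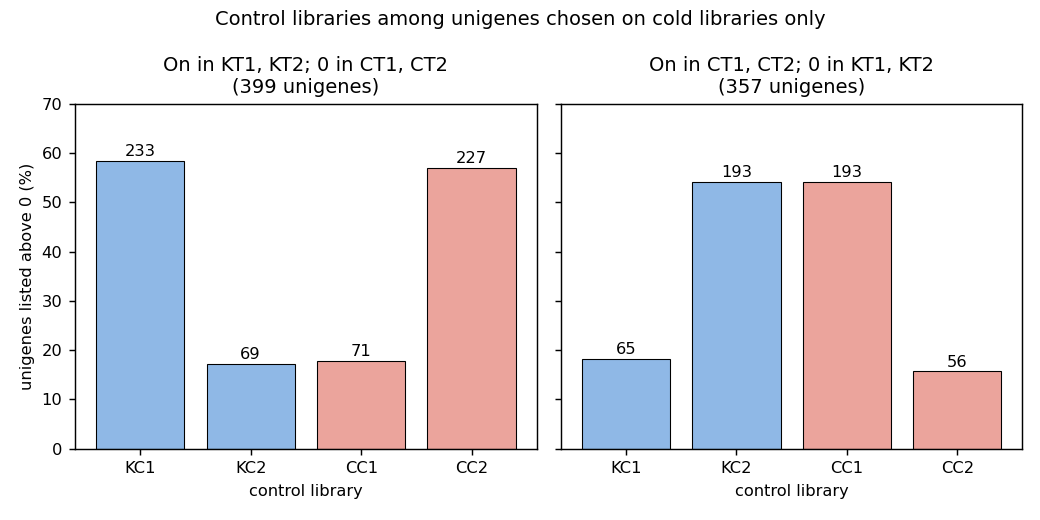
Percent of unigenes listed above 0 in each control library, among the 399 chosen as on in KT1 and KT2 and 0 in CT1 and CT2 (left) and the 357 chosen the other way (right), with the number of unigenes over each bar. The bars of KC1 and CC2 are tall on the left, at 58.4% and 56.9%, and those of KC2 and CC1 on the right, at 54.1% each.

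Tests by label were made with limma over the 31884 unigenes that reached a log2 value of 1 in 2 or more libraries, with Benjamini-Hochberg adjustment. A unigene was called at an adjusted p-value under 0.05 and a change of more than 1 log2 unit. All 265 members passed that filter because the rule required it. Because 1 library of each labelled control pair was at 0, the median standard error was 1.05 in the KT set and 0.83 in the CT set, against 0.29 over all unigenes tested. For K326 cold against K326 control, 23 members were called, all of them higher and in the KT set, where 14.7% of all unigenes tested were called higher. This count fell without KT1, KT2 or KC2 and rose without KC1, while the calls over all unigenes tested fell each time. For CB-1 cold against CB-1 control, 17 were called, all higher and in the CT set, where 15.5% of all unigenes were called higher. It fell without CT1, CT2 or CC2 and rose without CC1, and again the calls over all unigenes tested fell each time. Each of these fits left 1 library in a group, and without a cold library some members no longer passed the filter. The rule used these values, so nothing is read from the counts.

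Directly between the cold groups, K326 cold against CB-1 cold, 4 of the 265 members were called, where 0.405% of all unigenes tested were called in either direction, 0.248% higher and 0.157% lower. The higher ones were c7493_g1, with 2.70 and 2.90 in KT1 and KT2, and c25785_g1, with 2.58 and 2.49, both of the KT set and listed at 0 in CT1 and CT2. The lower ones were GRP and c99960_g1, with 2.70 and 3.12 in CT1 and CT2 and listed at 0 in KT1 and KT2. The count was 0 without a filter and with a filter of 4 libraries, settings in which 0 of all unigenes were called. With any 1 library left out the calls were likewise lost among all unigenes tested, not only among members. Nothing is read from the count, since the rule used these values. Between the labelled groups KC and CC, 0 members were called by limma, which called 0% of all unigenes there, and 0 had an unadjusted p-value under 0.05. The unmoderated test called 0 members and 13 unigenes in all. For the difference between the cold responses of K326 and CB-1, 0 members were called by limma, which again called 0% of all unigenes, and 0 by the unmoderated test, which called 143 unigenes in all. Before adjustment, 32 members of each set had a limma p-value under 0.05. The rule used these values and the share over all unigenes is not given here, so nothing is read from these counts.

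Members often had other unigenes in their cluster. Of the KT set 48 (33.8%) and of the CT set 53 (43.1%) were the only unigene of their cluster, against 49.4% of all unigenes tested. The KT set fell into 126 clusters and the CT set into 113. In the KT set 29 members shared 13 clusters, with up to 4 in a cluster, and in the CT set 19 members shared 9, with up to 3. In the cluster with most members, c53377, the unigenes g1, g2, g4 and g5 were of the KT set. The remaining one, c53377_g3, was chosen here after its values were seen. It had 0.12 and 0.30 in KT1 and KT2 against 3.15 and 3.74 in the libraries labelled KC1 and KC2, and 0.63 and 0 in CT1 and CT2 against 3.75 and 2.49 in CC1 and CC2. It fell in K326 by 3.24 (adjusted p = 0.0034) and in CB-1 by 2.80 (adjusted p = 0.00569) on the log2 scale, in limma with Benjamini-Hochberg adjustment, and was not on-off between the sets.

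Cluster mates are the unigenes that share a cluster with a member but did not meet the rule. Any unigene with the on-off pattern at or above the minimum is thus not among them. Of 533 mates, 142 were above 0 in all 8 libraries and 75 were at 0 in all 8. The on-off pattern of the KT set under the minimum was shown by 9 mates, each in a cluster with a KT member. That of the CT set was shown by 16, of which 13 were in clusters with a CT member, 2 in clusters with a KT member and 1 in a cluster with both. The filter was passed by 218 mates. In limma 14 were higher and 30 lower in K326 cold than in K326 control (20.2%), where 34.2% of all unigenes tested were called, and 16 were higher and 32 lower in CB-1 cold than in CB-1 control (22.0%), where 32.9% were called. Fewer mates were called in K326 without KT1 and in CB-1 without CT1, where fewer of all unigenes tested were called as well. After median-ratio scaling of the libraries the mates were 19 higher and 23 lower in K326, and 24 higher and 25 lower in CB-1. The median log2 change of the mates was −0.41 in K326 and −0.38 in CB-1, against −0.31 and −0.20 over all unigenes tested, which that scaling moved to 0.05 and 0.07.

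Mates of annotated members moved in several ways. POX1 (c67003_g4), another proline dehydrogenase beside the KT member POX2, had 3.41 and 1.67 in KT1 and KT2 and was listed at 0 in the other 6 libraries. It was called higher in K326 cold (limma, adjusted p = 0.0114), and no fold change is given. Its mate c67003_g2, also annotated as POX2, had 3.83 and 1.78 in the cold, against 1.49 in KC1 and 0 in KC2, and was not called (adjusted p = 0.0654 in limma). Both replicate pairs in the cold were far apart, with KT1 above KT2 as in the member. The NFYB7 mate c70415_g1 was lower in both cultivars, by log2 changes of −1.74 in K326 (adjusted p = 0.00924) and −1.22 in CB-1 (adjusted p = 0.0313; limma), while NFYB7 itself lay slightly above its expressing controls. The mate c70415_g6 had a log2 change of −1.68 in K326 (adjusted p = 0.0135; limma). Beside the AtMg00810 unigene c86509_g5, the mate c86509_g3 had 2.02 and 1.91 in KT1 and KT2, 1.06 and 1.61 in CT1 and CT2, and 0 in all 4 controls, and was called in both cultivars. The other mates that passed the filter were called in neither cultivar (limma). They were c50710_g1, c57948_g1, c66612_g2, c70415_g5, c86509_g6, c87077_g1 and c87077_g4, with adjusted p-values from 0.0527 (c87077_g1 in CB-1) to 0.986 (c87077_g4 in CB-1).

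Both sets occurred together in 2 clusters. In c87077, R1A-6 (c87077_g3) of the KT set stood beside c87077_g2 of the CT set, which had 2.51 and 2.61 in CT1 and CT2, against 2.18 in CC1 and 1.33 in KC2. Another unigene, c87077_g1, was above 0 in all 8 libraries, and c87077_g4 was above 0 only in the libraries of the CT set, with 0.15 in CT1 and 1.67 in CT2. In c85460, the KT member c85460_g3 had 1.36 and 1.69 in KT1 and KT2, against 0.10 in KC1 and 0.36 in CC2. The CT member c85460_g2 had 1.81 and 1.79 in CT1 and CT2, against 1.23 in CC1 and 1.68 in KC2, and c85460_g1 was at 0 in every library. The values of unigenes in one cluster are uncertain where reads could be shared.

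**Figure D5:**
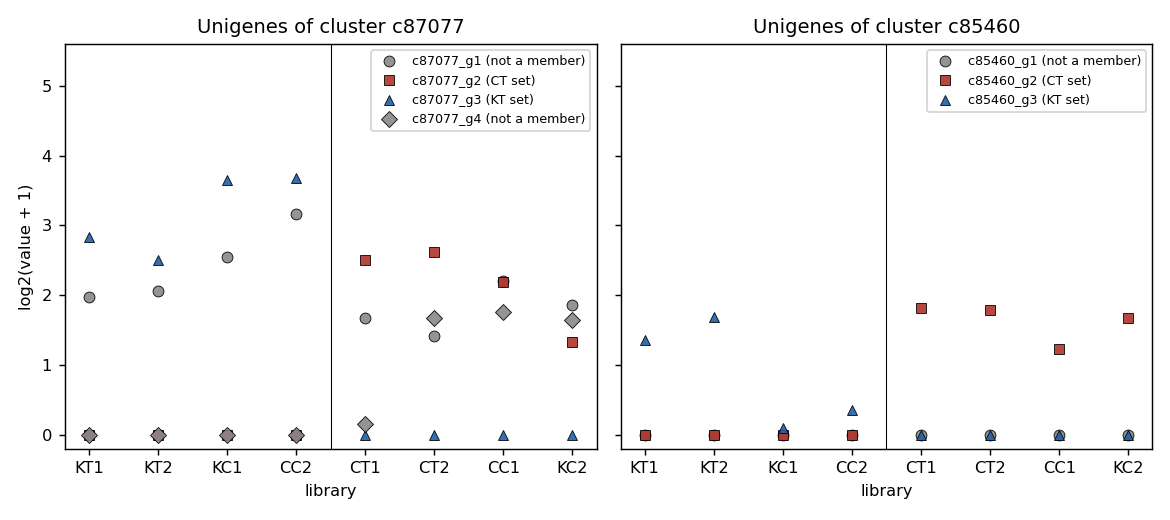
Log2(value + 1) of every unigene of clusters c87077 (left) and c85460 (right) in the 8 libraries, with triangles for KT members, squares for CT members and grey marks for unigenes outside the sets, and a line between the libraries of the KT set and those of the CT set. Triangles stand above 0 only left of the line and squares only right of it, while c87077_g1 (circles) is above 0 in all 8.

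Functions were known for few members. The annotation, held here only for the first 1999 unigenes of its sheet, listed 111 members of the KT set, 9 of them with a function (8.11%), and 99 of the CT set, 12 with a function (12.1%), against 18.0% of all unigenes in it. Since it held most members, its rows were not a sample of the table, and no set test was run. Under the 11 functional names searched in it (trehalose phosphate, proline, nuclear factor Y, MADS-box, gibberellin 2-beta-dioxygenase, zinc, nitrate, late blight, calcium-binding, multiprotein-bridging and transposon-derived), 26 unigenes were not members, and all were tested. In limma 7 of them were higher and 0 lower in K326 cold than in K326 control, where 14.7% of all unigenes tested were higher and 19.5% lower. In CB-1, 8 were higher and 3 lower, where 15.5% of all unigenes tested were higher and 17.4% lower. Of those, GA2OX2 (c70247_g1), which inactivates gibberellins, was higher in both. It had 3.97 and 3.07 in KT1 and KT2, with KC1 and KC2 at 0 (adjusted p = 8.93e-04, limma). In CB-1 its log2 change was 1.74 (adjusted p = 0.00801, limma). The calcium-binding unigenes PBP1 (c99063_g1) and CML31 (c79475_g1) were higher in K326. PBP1 had 2.55 and 2.23 in KT1 and KT2, with KC1 and KC2 at 0 (adjusted p = 9.91e-04, limma), and CML31 had a log2 change of 4.09 (adjusted p = 0.0104, limma). TPS6 (c86349_g3), a trehalose-phosphate synthase, was higher in CB-1 by 1.45 (adjusted p = 0.0445) and had a log2 change of −0.55 in K326 (adjusted p = 0.358; limma). NFYA7 (c77577_g1), an A subunit of nuclear factor Y, had 1.72 and 1.89 in KT1 and KT2 against 2.67 and 5.44 in the libraries labelled KC1 and KC2, and passed in neither cultivar. Of the 6 late blight homologs outside the sets, 2 were higher and 1 lower in CB-1 (limma).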

How the data were processed

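Leaves of K326 and CB-1 in the cold and in control conditions were sequenced with 2 libraries a group. The authors assembled the reads with Trinity, mapped them to the unigenes with bowtie, estimated abundance with RSEM and deposited log2(value + 1). The scaling of the value and the tool versions are not given in the sources used here. The deposited log2 values of 135146 unigenes were used as they stand, with groups from the labels.

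The members and lists were chosen with earlier results of these data known. Members were found by the rule on all 8 libraries. Unigenes at or above 1 in at least 2 libraries (31884) were tested in one limma fit of 4 group means with a variance trend and Benjamini-Hochberg adjustment, called at an adjusted p under 0.05 and a log2 change over 1. The authors named a t-test without details, so an unmoderated test was an alternative, beside pseudocounts, filters, median-ratio scaling, a replicate block and leaving out each library. The fit was tested on simulated data. Named were all annotated members, the 5 highest of each set in the cold, those nearest the minimum, and tested mates of annotated members. Names came from the UniProt annotation of the study, as far as held here. Tools were Python 3.11.15, pandas 2.3.3, numpy 2.4.6, matplotlib 3.10.9, R 4.3.3 and limma 3.58.1.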

Additional observations from a re-analysis of the deposited data

How the results depend on the processing

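The number of on-off unigenes was 265, 566 without a minimum, 185 at a minimum of 2, 265 with off at up to 0.1, and from 286 to 341 with 1 library left out of the rule. The crossed share of unigenes chosen on cold libraries alone was 35.1%, and 10.1% without a minimum, 57.1% at a minimum of 2 and 32.0% with off at up to 0.1 (chosen after seeing the data). Members called in K326 numbered 23, and 7 with a pseudocount of 0.1, 12 without a filter, 7 with a filter of 4 libraries, 12 in the unmoderated test, and from 0 to 39 with 1 library left out. In CB-1 the 17 calls became 7, 6, 7 and 6 under the same settings, and from 2 to 26 with 1 library left out. Over all unigenes tested, the K326 calls were 10919, and 12791 with the pseudocount of 0.1. They were 8721 without a filter, 9209 with the filter of 4 libraries and 8686 in the unmoderated test. The CB-1 calls in all were 10478, and 12138, 8156, 8756 and 8083 in the same order. With the pseudocount member calls thus fell while calls in all rose, and in the later settings both fell. The filter of 4 libraries kept 204 of the 265 members. Between the cold groups the 4 calls became 0 with the pseudocount of 0.1, where 111 unigenes were called in all. They became 0 without a filter and with the filter of 4 libraries, where 0 unigenes were called in all. With median-ratio scaling they were 12 (260 in all) and in the unmoderated test 1 (217 in all). With 1 library left out the calls were lost among all unigenes tested. Calls among cluster mates ran from 28 to 47 in K326 and from 31 to 47 in CB-1 with 1 library left out. The cause of these shifts was not tested.

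Replicate numbers did not pair the samples: the deviations of same-numbered libraries had correlations from −0.0435 to 0.0445 between groups, and −0.376 between KC and CC. With the replicate block the members called were 19 in K326 (10618 unigenes in all) and 13 in CB-1 (10066 in all). Between the cold groups 0 members were called, and 0 unigenes in all. The numbers of KC were also crossed in the block, an alternative chosen after seeing the data. Members called were then 25 in K326 (10774 in all) and 21 in CB-1 (10211 in all). Between the cold groups 0 unigenes in all were again called. Members called between the labelled control groups, and for the difference of cold responses, were 0 under every setting that kept all 8 libraries. The rule used these values, so nothing is read from this. Without read counts, neither depth nor a detection limit could be given for a value of 0.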

Other observations

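A few unigenes showed the crossed order of the libraries without being on-off by the rule. They were chosen after their values were seen, as unigenes not all at 0 in the low set whose lowest value in the high set lay at least 2 log2 units above the highest value in the low set, and they were not tested. On the side of KT1, KT2, KC1 and CC2 there were 8, with gaps from 2.02 to 3.60. ATHB-7 (c72344_g1), a homeodomain-leucine zipper factor that in Arabidopsis responds to drought and abscisic acid, had 5.43 and 6.10 in KT1 and KT2, against 3.94 in KC1 and 2.54 in CC2. It was at 0 in CT2, CC1 and KC2 and at 0.03 in CT1. The late blight homolog R1B-16 (c60206_g1) had 4.11 and 4.16 in KT1 and KT2, against 4.85 in KC1 and 4.89 in CC2, and between 0 and 0.85 in the other libraries.

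On the side of CT1, CT2, CC1 and KC2 there were 9, with gaps from 2.22 to 3.92. The widest gap was that of GRP (c26589_g1), a glycine-rich protein like the on-off GRP unigene. It had 7.80 and 7.62 in CT1 and CT2, against 7.75 in CC1 and 7.83 in KC2, and from 3.24 to 3.70 in the libraries of the other side. The unigene c72544_g1 of sec61a, the channel of protein entry into the endoplasmic reticulum, had 6.24 and 6.11 in CT1 and CT2, against 4.78 in CC1 and 4.75 in KC2, and from 0 to 0.96 elsewhere. CESA1 (c66835_g1), a catalytic subunit of cellulose synthase, had 3.89 and 4.16 in CT1 and CT2, against 5.12 in CC1 and 4.50 in KC2, with 1.44 in CC2 as the highest value of the other side. The unigene c89805_g1 of the kiwifruit protein Kirola had 4.10 and 3.51 in CT1 and CT2, against 6.73 in CC1 and 6.83 in KC2, lower in the cold within its side.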
